A study of Homo sapiens with 4 samples.

Results

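The genes of DNA replication licensing and of the replication fork were followed in TPC1 cells treated with the RET inhibitor BLU6864 for 6 h or for 24 h. This established line comes from a human papillary thyroid carcinoma, carries the CCDC6-RET rearrangement, and was the 1 line used. The 49 genes were chosen by name, as subunits and partners of the machinery that prepares origins and copies DNA, and all 49 were found among the 20372 genes counted. Cells were cultured in DMEM with serum, and total RNA was sequenced in 2 libraries per time point. All 4 libraries came from cells in the inhibitor, and vehicle libraries were not analysed here, so each comparison sets a late against an early time in drug. The sample labels give the dose as 100 µM and the methods give the same figure in nM. The labels mark the 24 h libraries, and not the 6 h libraries, as a re-analysis, so that mark and time cannot be told apart. Neither the labels nor the methods state that the libraries of a time point came from separate cultures, and p-values then measure only the spread between these libraries, which may be technical.

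Library totals lay between 23917056 and 27457040 counts. Values below are normalized counts, meaning raw counts scaled by library size and TMM factors (0.979 to 1.02), and log2 fold changes are of 24 h against 6 h, so a negative value is a lower level at 24 h. Calls rest on the quasi-likelihood test of edgeR, adjusted by Benjamini and Hochberg's method over 12876 genes, at an adjusted p under 0.05. The thyroid factor PAX8 was high at both times, at 20645 and 22045 at 6 h and 19961 and 21078 at 24 h, while the defining thyroid genes NKX2-1 and TSHR were at 0 counts in all 4 libraries. Among the other thyroid markers, FOXE1 rose from 295 and 268 to 460.3 and 541 and TG fell from 201 and 235 to 97.6 and 108, and SLC5A5 was near 0. Of the keratins, KRT7 (0.84) and KRT18 (0.37) rose, KRT19 fell (-1.59) and KRT8 was not called (-0.05), while EPCAM and CDH1 were near 0. Of 7 white blood cell markers, 1 (CD14) had over 3 counts in every library, and the 7 summed to 50 and 48 counts at 6 h and to 92 and 93 at 24 h. The 5 fibroblast markers, of which DCN was at or near 0 and 3 had over 3 counts in every library, summed to 568 and 656 counts at 6 h and to 257 and 302 at 24 h. PDGFRB (-1.48) and COL1A1 (-1.57) fell and LUM rose (0.75). The part of these markers in the results was not tested.

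Before a cell copies its DNA, the origin recognition complex (ORC) marks origins, and CDC6 and CDT1 load the MCM2-7 helicase there in an inactive form, a step called licensing. The CDC7 kinase with DBF4 and the cyclin-dependent kinases then switch the helicase on by adding CDC45 and GINS, and polymerases, the PCNA clamp and its loader RFC copy both strands. Many of these genes are transcribed mainly as cells pass from G1 into S phase, under E2F transcription factors, so their RNA is commonly read as a mark of cycling cells.

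The replication genes were lower at 24 h than at 6 h almost throughout. Of the 49 genes, 46 fell, none rose, and the remaining 3 (ORC4, ORC5 and POLD2) were not called. Over all genes tested, 32.6% were called lower and 33.0% higher. None of the 49 was higher at an unadjusted p under 0.05 in edgeR or in DESeq2. A fall of over 1 on the log2 scale was called for 36 of the 49, against 8.50% of all genes. The cutoffs of the methods, a log2 fold change past 0.5 with an unadjusted p under 0.01, were passed downward by 42 of the 49 against 17.7% of all genes, and upward by none against 17.4%.

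The median log2 fold change of the 49 genes was -1.58, a level 2.99-fold higher at 6 h, beside 0.0029 over all genes tested. Single genes ranged from -4.57 for CDC45 to 0.11 for POLD2. In 46 genes both 24 h libraries lay below both 6 h libraries, as they did in 40.8% of all genes. In POLD2 both lay above, and in ORC4 and ORC5 the libraries overlapped. Together the 49 genes held 58909 and 66022 reads at 6 h, 0.246% of each library, and 26294 and 25551 reads at 24 h, 0.0993% and 0.0931%. Their summed normalized count was 63467 ± 178 at 6 h and 25531 ± 942 at 24 h (SD, n = 2). Fewer cycling cells and less RNA of these genes per cell cannot be told apart in such bulk RNA. The plot of levels by gene and library gives each value.

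**Figure D1:**
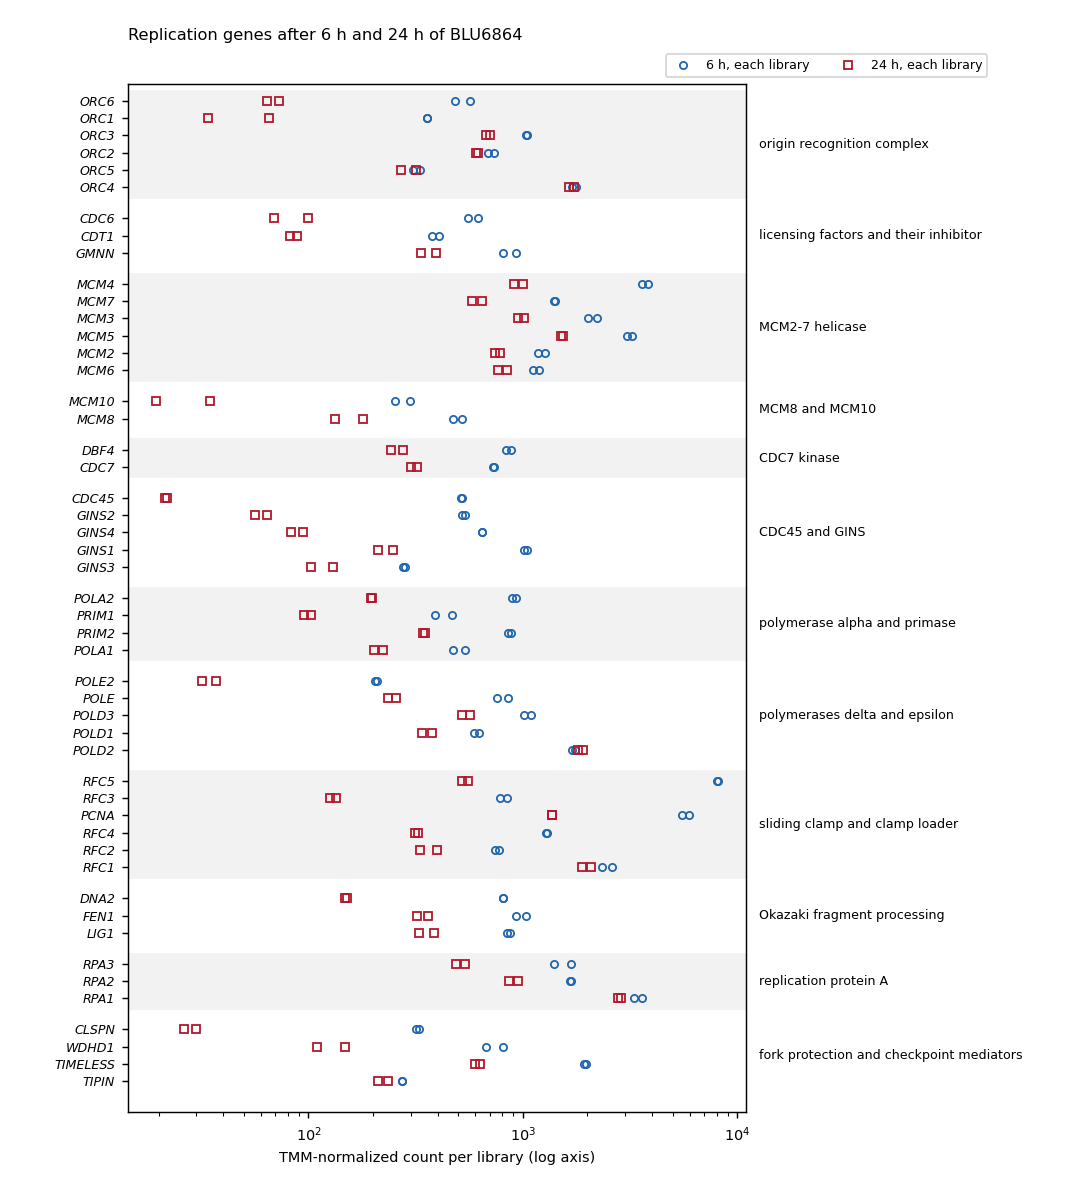
Normalized count (TMM, log axis) of each of the 49 replication genes in each library, with 6 h in BLU6864 as blue circles and 24 h as red squares, grouped by role. In 46 genes the 2 red squares lie left of both blue circles, and ORC4, ORC5 and POLD2 are the other 3.

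The promoters of genes that fell so broadly were read for letters known from cell-cycle promoters. RefSeq windows of the 250 bases before the start of transcription (GRCh38.p14) were matched by symbol for 42 of the 49 genes, and no window was matched for MCM4, MCM5, GINS4, POLD3, DNA2, RPA2 and RPA3. A full E2F motif, searched only as TTTGGCGC or TTTCGCGC on either strand, was present in 7 of the 42 (16.7%). These genes were GMNN, MCM6, MCM7, POLA1, POLA2, POLE and TIPIN. The same letters were in 0.968% of all 35116 promoter windows and in 2.02% of 9717 tested genes with a window. The stretches that hold them are shown for 5 of these genes because they cover the helicase and all of the polymerase genes with a match. They lie on the minus strand at chr2:135876502-135876615 for MCM6 and chr7:100101398-100101426 for MCM7, on the plus strand at chrX:24693761-24693808 for POLA1 and chr11:65261889-65261936 for POLA2, and on the minus strand at chr12:132687343-132687380 for POLE. Each is written 5′ to 3′ in the direction of its gene, and capitals mark the E2F motif or its reverse complement.
MCM6: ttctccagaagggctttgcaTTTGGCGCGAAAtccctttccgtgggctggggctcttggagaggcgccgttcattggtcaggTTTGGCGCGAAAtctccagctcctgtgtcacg
MCM7: cggtcacgtggggggcgacgTTTCGCGCc
POLA1: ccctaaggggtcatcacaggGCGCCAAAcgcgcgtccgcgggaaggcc
POLA2: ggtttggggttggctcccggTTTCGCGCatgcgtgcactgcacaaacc
POLE: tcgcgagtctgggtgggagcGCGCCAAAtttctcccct
In MCM6 each of the 2 capital runs holds the motif on both strands in overlapping form, which makes 4 matches. The median log2 fold change was -1.25 over the 7 genes with the motif and -1.67 over the other genes with a window. MCM6, with the most matches, had the smallest fall of the MCM2-7 genes.

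A shorter E2F core, TTGGCGC or TTCGCGC, whose letters lie within the full motif, was present in 9 of the 42 genes (21.4%), 4.24% of all windows and 8.71% of tested genes. The CCAAT box, bound by NF-Y and common before cell-cycle genes, was in 25 of the 42 (59.5%) against 32.0% of windows and 41.8% of tested genes, and the median log2 fold change was -1.67 with the box and -1.33 without it. The CHR letters TTTGAA or TTCGAA, known from promoters of mitotic genes, were in 1 of the 42, MCM6 (2.38%), against 14.3% of windows and 13.5% of tested genes. Stretches with several CCAAT boxes are shown for a licensing gene, the clamp and a checkpoint gene that had large falls, with capitals marking CCAAT or its reverse complement. They lie at chr17:40287733-40287853 on the plus strand for CDC6, and on the minus strand at chr20:5126623-5126794 for PCNA and chr1:35770000-35770117 for CLSPN.
CDC6: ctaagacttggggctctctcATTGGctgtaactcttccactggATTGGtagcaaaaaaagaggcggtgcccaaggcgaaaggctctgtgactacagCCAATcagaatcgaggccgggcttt
PCNA: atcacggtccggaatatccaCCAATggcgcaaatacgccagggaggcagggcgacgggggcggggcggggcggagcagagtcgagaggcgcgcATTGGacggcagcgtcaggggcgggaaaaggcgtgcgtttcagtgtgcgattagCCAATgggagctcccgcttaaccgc
CLSPN: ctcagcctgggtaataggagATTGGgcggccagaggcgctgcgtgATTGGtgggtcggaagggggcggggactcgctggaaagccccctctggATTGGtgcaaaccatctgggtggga
MCM3, not shown, also held 3 CCAAT boxes and had a smaller fall (-1.10) than CDC6, PCNA or CLSPN. CDC45, also not shown, held up to 4 in a window, the most of the 42 genes, and had the largest fall among them (-4.57). All of these matches are descriptions of letters, not of binding.

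Within the origin recognition complex the subunits split. ORC1, the ATPase subunit that joins the complex in G1, was at 356 and 358 at 6 h and at 65.8 and 34.1 at 24 h. ORC6, the smallest subunit, was at 484 and 564 and then at 63.8 and 73.0. Every 24 h library lay far below every 6 h library in both genes, and they fell by 7.16-fold and 7.66-fold, with log2 fold changes of -2.84 ± 0.17 (SE, adjusted p = 7.12e-14) and -2.94 ± 0.14 (adjusted p = 2.03e-16). The 24 h libraries of ORC1 differed more from each other than those of any other member, with a coefficient of variation of 44.9%.

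ORC4, another ATPase subunit, stayed at 1689 and 1761 at 6 h and 1736 and 1642 at 24 h. Its libraries overlapped between times, and the change on the log2 scale was -0.03 ± 0.07 (edgeR adjusted p = 0.711). ORC5 was at 330.3 and 308 and then at 318 and 272, again overlapping, with -0.11 ± 0.11 (adjusted p = 0.377). ORC3 fell by 1.51-fold, with a log2 fold change of -0.60 ± 0.08. ORC2, at 736 and 689.8 at 6 h and 618 and 602 at 24 h, had -0.22 ± 0.09 (adjusted p = 0.0242). The ORC2 call was lost with DESeq2 (adjusted p = 0.0892) and without either 24 h library or the first 6 h library (edgeR adjusted p = 0.0535, 0.106 and 0.149). Measured against ORC4 in the same library, the log2 ratio of ORC1 dropped by 2.88 and that of ORC6 by 2.91.

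The licensing factors CDC6 and CDT1 had larger falls than GMNN, the gene of the inhibitor of CDT1. CDC6, the ATPase that brings the helicase to ORC, was at 619 and 554 at 6 h and 99.6 and 69.1 at 24 h. CDT1, which carries MCM2-7 to the origin, was at 376 and 405 and then 81.7 and 88.6. Both were clearly separated between times, with log2 fold changes of -2.80 ± 0.14 (edgeR adjusted p = 5.21e-16) and -2.20 ± 0.13 (adjusted p = 4.95e-14).

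Geminin (GMNN), the protein that binds CDT1 and blocks licensing in S and G2 phase, was at 811 and 927 at 6 h and 336 and 395 at 24 h. It fell by 2.38-fold (-1.25 ± 0.10 on the log2 scale, edgeR adjusted p = 1.36e-11). The log2 ratio of CDT1 to GMNN counts within a library was -1.11 and -1.19 at 6 h and -2.04 and -2.16 at 24 h. CDT1 RNA was therefore lower relative to GMNN RNA in both 24 h libraries, by 0.95 on the log2 scale or 1.93-fold. With 2 libraries against 2, the smallest two-sided p that an exact permutation test of this ratio can give is 0.333.

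All 6 subunits of the MCM2-7 helicase fell, by less than most other roles, with a median log2 fold change of -1.08. MCM4 fell most, from 3817 and 3611 at 6 h to 1003 and 912 at 24 h. MCM6 fell least, from 1184 and 1111 to 845 and 767. Their log2 fold changes were -1.96 ± 0.08 (edgeR adjusted p = 4.22e-18) and -0.51 ± 0.08 (adjusted p = 3.99e-06), and the libraries of the 2 times did not overlap in either. MCM7 (-1.19), MCM3 (-1.10), MCM5 (-1.05) and MCM2 (-0.69) lay between them.

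As proteins these subunits form a ring with 1 copy of each. Their RNA did not fall in proportion, and protein, which RNA need not follow, was not measured. MCM4 held 29.4% and 28.8% of the MCM2-7 reads at 6 h and 17.3% and 16.6% at 24 h. MCM2 and MCM6 took larger shares at 24 h, of 13.5% in each library and of 14.6% and 14.0%, against 9.77% and 9.43%, and 9.13% and 8.87%, at 6 h. The log2 ratio of MCM4 to MCM6 was 1.69 and 1.70 at 6 h and 0.25 in each 24 h library, a difference of -1.45 that was far larger than the spread within either time. Such read shares depend on transcript length and are compared here only between times.

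The related MCM8 and MCM10 are not part of this ring. MCM10, which helps to activate the loaded helicase, was at 253 and 297 at 6 h and 34.9 and 19.5 at 24 h, 10.1-fold lower (-3.34 ± 0.20, edgeR adjusted p = 3.27e-14). MCM8, which acts with MCM9 in homologous recombination, went from 519 and 472 to 179 and 133, a 3.17-fold fall (-1.66 ± 0.12, adjusted p = 4.41e-12). For the kinase that starts origin firing, the regulatory subunit DBF4 went from 832 and 881 to 277 and 242 and the catalytic subunit CDC7 from 735 and 724 to 319.8 and 301. Neither gene overlapped between times, and the log2 fold changes were -1.72 ± 0.10 and -1.23 ± 0.09.

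The factors that turn MCM2-7 into a moving helicase had the lowest median of the role groups, -2.86 on the log2 scale over 5 genes. CDC45 (ENSG00000093009, chr22:19466982-19508135 in hg19) had the largest fall of all 49 genes. It was at 514 and 518 at 6 h and 21.9 and 21.4 at 24 h, where each library held 22 raw reads. This was a 23.7-fold difference, or -4.57 ± 0.16 on the log2 scale (edgeR adjusted p = 4.94e-19), and 0.373% of all genes tested were as low or lower. Set against MCM2 in the same library, which went from 1267 and 1181 to 782 and 739.6, CDC45 dropped by 3.89 on the log2 scale.

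GINS is a complex of 4 small subunits, and these fell unequally. GINS2 went from 518 and 535 at 6 h to 63.8 and 56.4 at 24 h, which on the log2 scale was -3.13 ± 0.13. GINS3 went from 276 and 283 to 131 and 103, with -1.26 ± 0.14 (edgeR adjusted p = 7.03e-09). GINS4 (-2.86) and GINS1 (-2.17) lay between them, and no 24 h value of the 4 genes reached its 6 h values. The log2 ratio of GINS2 to GINS3 was 0.91 and 0.92 at 6 h and -1.03 and -0.87 at 24 h, and it dropped by 1.86.

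**Figure D2:**
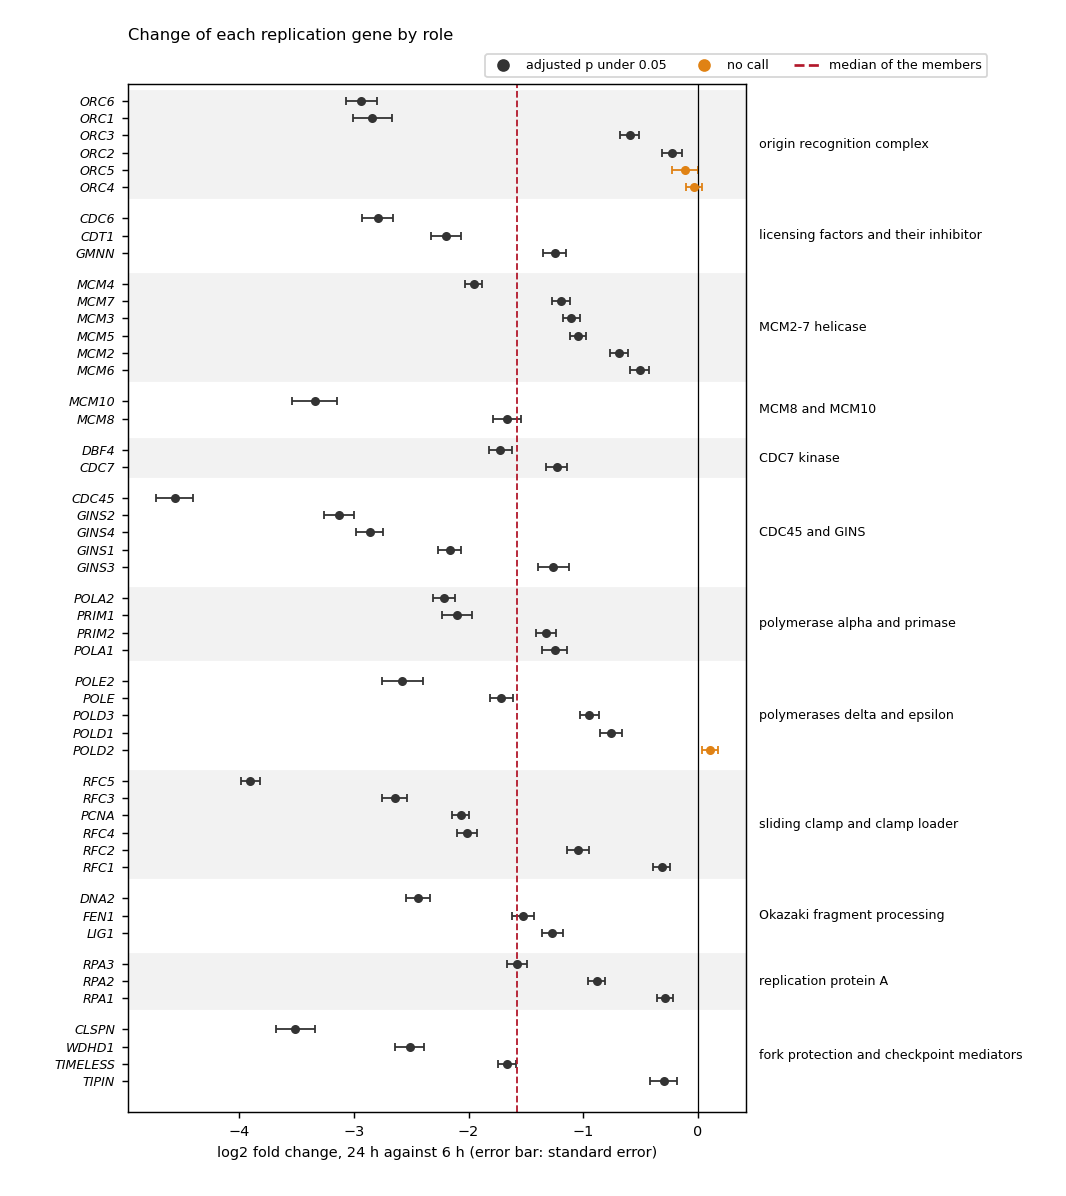
Log2 fold change of 24 h against 6 h for each of the 49 genes by role, with the standard error as a bar, called genes in black, genes with no call in orange, and the median of the 49 genes (-1.58) as a dashed line. CDC45 lies farthest left at -4.57, and ORC4, ORC5 and POLD2 are the orange points near 0.

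Polymerase alpha and primase make the RNA-DNA primers from which each new strand starts, and all 4 of their subunits fell. POLA2, the accessory subunit, went from 933 and 894 at 6 h to 197 and 197 at 24 h (-2.21 ± 0.10, edgeR adjusted p = 6.70e-17). POLA1, the catalytic subunit, went from 539 and 472 to 222 and 202 (-1.25 ± 0.11, adjusted p = 1.27e-10). Both primase subunits were also separated between times. PRIM1, which joins the first ribonucleotides, went from 388 and 465 to 95.6 and 103 (-2.10 ± 0.13), and the large subunit PRIM2 went from 854 and 884 to 344 and 349 (-1.33 ± 0.09). In each of these enzymes 1 subunit fell further than its partner, and the log2 ratio of PRIM1 to PRIM2 dropped by 0.77.

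Of the 5 genes followed here for the polymerases that extend the strands, 4 fell and 1 was not called. POLD2, an accessory subunit of polymerase delta, was at 1693 and 1757 at 6 h and 1901 and 1812 at 24 h. Its 24 h libraries lay above both 6 h libraries, but the log2 fold change of 0.11 ± 0.07 was not called (edgeR adjusted p = 0.19). POLD1, the catalytic subunit of the same enzyme, fell by 1.7-fold (-0.76 ± 0.10). POLD3, another accessory subunit, went from 1088 and 1014 to 568 and 523 (-0.95 ± 0.08). The log2 ratio of POLD3 to POLD2 dropped by 1.05.

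In polymerase epsilon, which extends the leading strand, both subunits followed here fell. POLE2 went from 204 and 209 at 6 h to 31.9 and 37.0 at 24 h (-2.58 ± 0.18, edgeR adjusted p = 1.06e-12). The catalytic subunit POLE went from 757 and 854 to 235 and 256 (-1.71 ± 0.10, adjusted p = 2.77e-14). POLD2 alone held 39.1% and 39.4% of the reads of these 5 polymerase genes at 6 h and 61.8% and 60.3% at 24 h.

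PCNA, the ring that holds polymerases on DNA, and RFC, the 5-subunit loader that opens it, included the 2 genes with the highest counts per kilobase at 6 h. PCNA was at 5500.1 and 5977 at 6 h and 1369 and 1366 at 24 h, a 4.2-fold fall (-2.07 ± 0.08, edgeR adjusted p = 9.74e-19). Per kilobase of transcript, its mean normalized count was the highest of the 49 genes at both times, at 4223 and 1006.

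RFC5, a small subunit of the loader (ENSG00000111445, chr12:118451393-118470935 in hg19), stood out at 6 h. It was at 8132 and 8043 at 6 h and 556 and 523 at 24 h, a 15-fold difference with the second largest log2 fold change of the 49 genes, -3.91 ± 0.08 (edgeR adjusted p = 8.12e-24). Per kilobase, RFC5 was at 3302 at 6 h, beside 353 for RFC3, 449 for RFC2, 506 for RFC1 and 892 for RFC4. The assembled loader holds the 5 subunits in equal numbers, but that concerns protein, which was not measured. At 24 h RFC5 was at 220.2 per kilobase, close to 217 for RFC2 and 221 for RFC4. RFC5 thus held 42.5% and 42.0% of the reads of PCNA and RFC at 6 h and 11.4% and 11.5% at 24 h.

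In the table RFC5 shares 224 bp with the neighbouring gene WSB2, and the sources used here do not give the counting rule for shared bases. WSB2 had 4670 and 5228 raw reads at 6 h and 3123 and 3122 at 24 h, and fell by 0.71 on the log2 scale. The part of this overlap in the RFC5 counts was not tested.

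The other loader subunits fell less than RFC5. RFC3 went from 846 and 781 at 6 h to 134 and 126 at 24 h (-2.64 ± 0.11, edgeR adjusted p = 1.27e-17), RFC4 had -2.01 ± 0.09, and RFC2 had -1.05 ± 0.10. RFC1, the large subunit that is particular to the PCNA loader, went only from 2603 and 2339 to 2081 and 1887 (-0.32 ± 0.08, adjusted p = 0.000631). Against RFC1 in the same library, the log2 ratio of RFC5 dropped by 3.59 and that of PCNA by 1.75. The share of reads held by RFC1 was 13.6% and 12.2% at 6 h and 42.8% and 41.5% at 24 h, as the plot of subunit shares gives it.

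**Figure D3:**
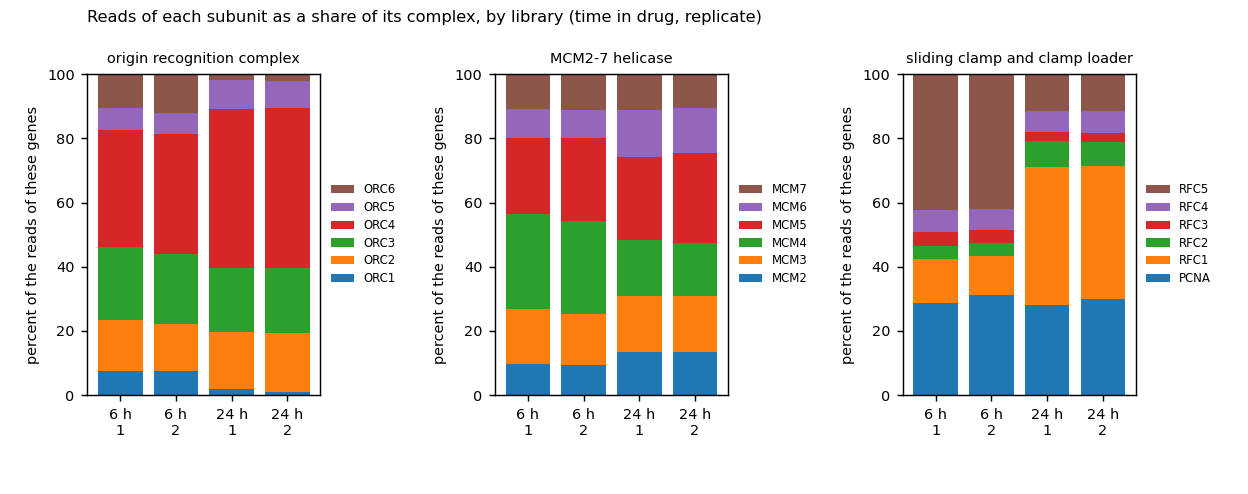
Percent of the raw reads of the origin recognition complex, the MCM2-7 helicase, and PCNA with RFC that each subunit held, by library, with 6 h on the left and 24 h on the right of each panel. ORC1 and ORC6 shrink to 2.22% or less at 24 h, MCM4 falls from 29.4% and 28.8% to 17.3% and 16.6%, and RFC5 from 42.5% and 42.0% to 11.4% and 11.5%.

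On the lagging strand, the 3 genes that trim and join Okazaki fragments fell. DNA2, a helicase and nuclease, went from 812 and 808 at 6 h to 147 and 151 at 24 h (-2.44 ± 0.10, edgeR adjusted p = 2.71e-17). The flap endonuclease FEN1 fell by 2.88-fold (-1.53 ± 0.09), and LIG1, which seals the nicks, went from 839.9 and 871 to 384 and 327 (-1.27 ± 0.09, adjusted p = 4.52e-12). In the table FEN1 shares 4265 bp with FADS2, and FADS2 moved the other way, with a log2 fold change of 0.70.

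Replication protein A coats single-stranded DNA at forks and also during repair, and its 3 subunits formed a series. RPA3, the smallest, went from 1393 and 1669 at 6 h to 488 and 538 at 24 h (-1.58 ± 0.09, edgeR adjusted p = 1.97e-14). RPA2 fell by 1.84-fold (-0.88 ± 0.07), and RPA1, the largest, went from 3590.5 and 3314 to 2880.3 and 2780.3 (-0.29 ± 0.07, adjusted p = 0.00106). The log2 ratio of RPA3 to RPA1 dropped by 1.29. RPA3 overlaps the antisense gene RPA3-AS1 over 77897 bp. The methods name a stranded library kit, but the strand setting of the counting is not given in the sources used here. The counts of RPA3-AS1, from 672 to 735 reads, had a log2 fold change of -0.12 with no call (edgeR adjusted p = 0.221).

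Among genes that stabilise forks and pass on the checkpoint signal, CLSPN fell most. Claspin, its product, lets ATR activate CHK1, and its RNA was at 317 and 326 at 6 h and 29.9 and 26.3 at 24 h, 11.4-fold lower (-3.51 ± 0.17, edgeR adjusted p = 5.06e-16). WDHD1, which ties polymerase alpha to the helicase, fell by 5.71-fold (-2.51 ± 0.13).

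TIMELESS and TIPIN act as a pair of proteins, and their RNA did not fall alike. TIMELESS went from 1966 and 1928 at 6 h to 629 and 598 at 24 h (-1.67 ± 0.08, edgeR adjusted p = 1.35e-16). TIPIN was at 274 and 274 and then 211 and 235 (-0.30 ± 0.12, adjusted p = 0.0267). The TIPIN call was lost with DESeq2 (adjusted p = 0.123) and without the first 24 h library or either 6 h library (edgeR adjusted p = 0.174, 0.0768 and 0.0828), so of this pair the TIMELESS call alone held in all of these fits.

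Ratios between partner genes were taken within each library, which removes differences in depth. In all 12 pairs the 24 h libraries lay below the 6 h libraries, with differences from -0.77 for PRIM1 to PRIM2 to -3.89 for CDC45 to MCM2. Apart from CDT1 to GMNN the pairs were picked after their values were seen, so their direction is a description. The gaps between times exceeded the gaps between the libraries of a time in each pair. For POLE2 to POLE the values were -1.89 and -2.03 at 6 h and -2.88 and -2.79 at 24 h, a drop by 0.88.

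**Figure D4:**
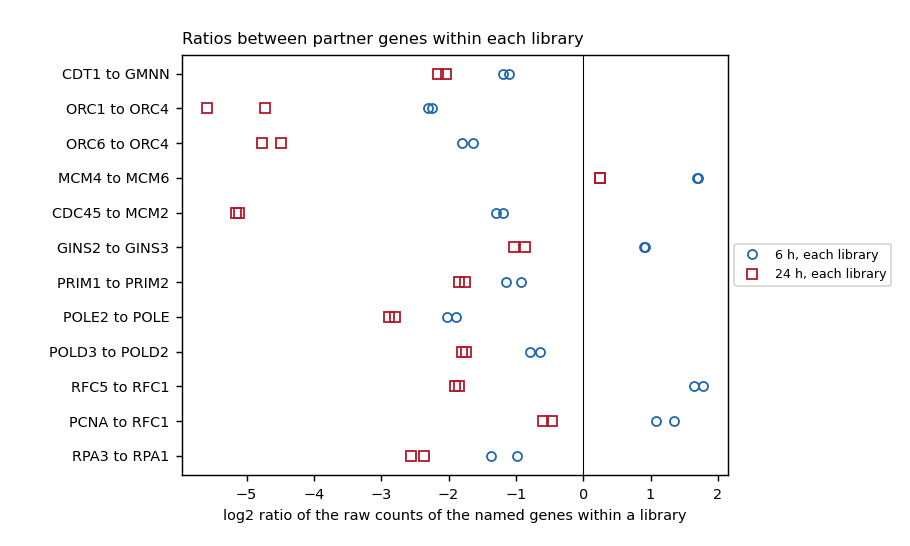
Log2 ratio of the raw counts of 2 partner genes within each library for 12 pairs, with 6 h as blue circles and 24 h as red squares. The red squares lie left of the blue circles in each pair, with a difference of -1.45 for MCM4 to MCM6 and of -3.59 for RFC5 to RFC1.

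Bases shared with another gene of the table occur in 12 of the 49 genes (ORC4, MCM2, MCM7, DBF4, GINS2, PRIM1, POLD1, RFC4, RFC5, FEN1, RPA1 and RPA3), and their counts are uncertain to that extent. The genes with small or no change, ORC2, ORC4, ORC5, POLD2, RFC1, RPA1 and TIPIN, each sit in a group where another member fell by over 1 on the log2 scale.

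Other genes of replication, listed by role and not among the 49, gave a similar median. Of 30 tested, 21 fell, 2 rose and 7 were not called, with a median log2 fold change of -1.36. The histone chaperone ASF1B fell most, from 1027 and 1035 at 6 h to 74.7 and 71.0 at 24 h (-3.82 ± 0.11, edgeR adjusted p = 1.10e-20). The origin firing factors TICRR (-3.23) and MTBP (-2.02) and the PCNA-linked genes DTL (-3.18) and PCLAF (-2.58) also fell.

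MCM9, the partner of MCM8, rose from 323 and 366 to 516 and 533 (0.60 ± 0.10, edgeR adjusted p = 6.29e-06), opposite in direction to MCM8. The gene ASF1A lies within the span of MCM9 and fell, with a log2 fold change of -1.30. The part of this overlap in the MCM9 counts was not tested. The FACT subunit SUPT16H had 0.26 ± 0.08 (adjusted p = 0.00419), a call lost without the first 24 h library (0.0665) or the second 6 h library (0.0923). The small polymerase subunits POLD4 (-0.10, adjusted p = 0.232) and POLE4 (-0.17, adjusted p = 0.0758) were not called, as POLD2 was not. Without the first 6 h library POLE4 and the RNase H2 subunit RNASEH2C were called lower (0.0111 and 0.0481).

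Genes that supply nucleotides did not move as one. Of 21 tested, 10 fell and 9 rose, with a median log2 fold change of 0.09. The shares over all genes tested were 32.6% lower and 33.0% higher. Those that make deoxynucleotides were among the 10 that fell, with RRM2 of ribonucleotide reductase going from 2712 and 2690.1 to 172 and 184 (-3.92 ± 0.09, edgeR adjusted p = 3.07e-23), TYMS at -2.63 and TK1 at -1.87. GMPS, PAICS and PPAT of purine synthesis also fell, by 0.35, 0.28 and 0.18 on the log2 scale. The 9 that rose belong to purine and pyrimidine synthesis, led by DHODH from 117 and 102 to 241 and 225 (1.10 ± 0.14, adjusted p = 1.24e-07), with ATIC at 0.88 and CAD at 0.82. The PPAT call was lost in DESeq2 (adjusted p = 0.131), with both other filters, with upper quartile scaling, and without either 24 h library or the first 6 h library (edgeR adjusted p = 0.0547 to 0.399). Without the second 24 h library IMPDH1 lost its call (0.0548) and DCTPP1 gained one (0.0449), as it also did with upper quartile scaling (0.0294). UMPS lost its call without the first 24 h library (0.110).

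Of 26 regulators of the step from G1 into S phase, 16 fell and 6 rose, with a median of -0.30. Over all genes tested, 32.6% were called lower and 33.0% higher. Cyclin A2 (CCNA2), which is made as S phase begins, fell most, from 3375 and 3231 at 6 h to 136 and 159 at 24 h (-4.48 ± 0.09, edgeR adjusted p = 6.64e-24). E2F1 (-3.30), E2F2 (-3.34), E2F7 (-1.56) and E2F8 (-3.95) fell, while E2F3 (0.37), E2F4 (0.33) and E2F5 (0.45) rose. E2F6 (0.20) was not called. Cyclin D1 (CCND1) rose most, from 1225 and 1292 to 2098 and 2089 (0.73 ± 0.07, adjusted p = 9.01e-10), and its kinases CDK4 (0.68) and CDK6 (0.42) also rose. CDK2 (-1.09), CCNE2 (-2.43), CDKN1A (-0.53) and CDKN2C (-0.87) were among the 16 that fell. The RBL2 call was lost in DESeq2 (adjusted p = 0.0614), with upper quartile scaling (edgeR 0.0567), and without the second 24 h library (0.188) or the second 6 h library (0.149). RB1 lost its call without the first 6 h library (0.0564), and CDKN1B without that library (0.144) or the second 24 h library (0.112).

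All 16 mitosis genes fell, with a median of -4.26 and a range from -4.93 for TTK to -3.03 for KIF11. CDC45, at -4.57, was the 1 gene of the 49 below the mitosis median, and RFC5, CLSPN, MCM10 and GINS2 also fell further than KIF11. The plot of changes by gene list sets the 5 lists side by side.

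**Figure D5:**
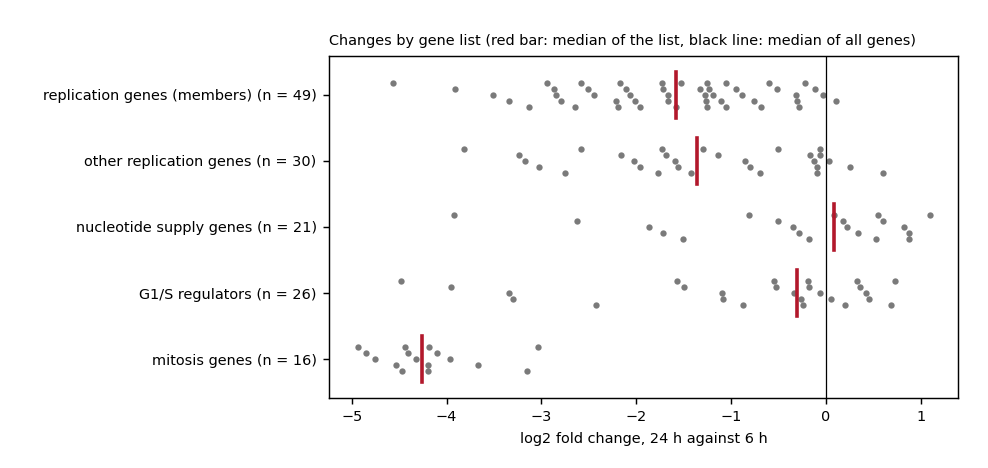
Log2 fold change of 24 h against 6 h for each gene of 5 lists, 1 point per gene, with the median of each list as a red bar and the median of all genes tested (0.0029) as a black line. The medians are -1.58 for the 49 replication genes, -1.36 for the other replication genes, 0.09 for nucleotide supply, -0.30 for G1/S regulators and -4.26 for mitosis genes.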

How the data were processed

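Total RNA of 4 libraries, 2 per time point, was analysed. Per the labels, libraries followed the Illumina TruSeq protocol and were read as single-end reads, whereas the methods state paired-end reads. The methods also name a stranded TruSeq kit. The authors aligned reads with STAR (2.3 in the submitters' processing notes, another version in the methods) to hg19 and deposited a raw count per gene for 20372 genes, the unit tested here. The counting program, strand setting and annotation are not given in the sources used here. The authors also deposited a normalized signal, the count divided by a DESeq2 size factor, and the fold changes and p-values of their own comparison, none of which were used. Per-sample columns left out for want of a matching sample numbered 0.

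Raw counts were tested in R 4.3.3 with edgeR 4.0.16 (filterByExpr, TMM, quasi-likelihood test, time as the single factor). Of the genes deposited, 12876 were tested and 4039 had no count in any library. P-values were adjusted over all genes tested. The standard error of a gene is its absolute log2 fold change divided by the square root of F. The biological coefficient of variation was 0.0521. Counts of the libraries within a time differed beyond sampling noise (chi-square per degree of freedom 7.97 at 24 h and 10.5 at 6 h), so they were not treated as the same library. This does not show that they are separate cultures. DESeq2 1.42.0 with its own size factors was an alternative test. Scaling was also done by library size alone or by the upper quartile, low counts were left unfiltered or a minimum of 10 was set in every library, the threshold was set to 0.01, the replicate number was added as a block, and each of the 4 libraries was omitted in turn. The procedure was tested on simulated data. In these few genes were changed and all genes had the same dispersion, unlike the real counts. That run therefore does not show how reliable the calls here are.

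The 49 genes and the other lists were chosen with earlier results of these data known. The result of 1 marker gene is not reported here. Every member is accounted for, with values in each library for the largest fall and the smallest change or rise in each role and for members that carry a subunit comparison. From the other lists the largest rise and fall and the genes that lost a call are named, and further genes, such as the E2F genes, CDK4, CDK6 and those of nucleotide synthesis, were named after their values were seen. Partner pairs other than CDT1 to GMNN, and the promoters shown, were also picked after values were seen. For CHTF8 and RBL1, which have 2 rows each, the row with more counts was used. Transcript lengths were those of the longest coding transcript in GENCODE, matched by Ensembl identifier for all 49 members. Gene positions follow hg19 as in the table, and promoter positions follow the RefSeq table's build, GRCh38.p14. Motifs were searched in Python 3.11.15 and plots drawn with matplotlib 3.10.9. With 2 libraries per time point, counts and fold changes cover the spread between these libraries only, and no outlier test was possible.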

Additional observations from a re-analysis of the deposited data

How the results depend on the processing

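Of the 49 genes, 46 were lower at 24 h under library size alone, upper quartile scaling, both other filters and the replicate block, and 44 in DESeq2 and at an adjusted p under 0.01. Leaving out each library gave 44 to 45, and no fit called a member higher. The cutoffs of the methods were passed downward by 41 to 42 members. The median log2 fold change was -1.62 with library size alone and -1.55 with upper quartile scaling, which moved the median of all genes to -0.0398 and 0.0326, and it lay between -1.61 and -1.46 with a library left out. Such fits leave 1 library in a group, which is then assumed to vary like the other group. The CDT1 to GMNN difference lay between -1.01 and -0.89. ORC4 ranged from -0.0647 to 0.0151 and ORC5 from -0.22 to 0.0028 with a library left out, and both turned positive without the second 24 h library. The number of other replication genes called higher ranged from 1 to 2 (SUPT16H). Of 294 values of single members under the other settings 292 kept direction and call, and of 196 with a library left out 188 did, and the remainder are ORC2, TIPIN, ORC4 and ORC5. With the replicate number as a replicate block, 46 members were lower and the median was -1.57, and 22 other replication genes were called lower in place of 21, with POLE4 added, and DCTPP1 was called higher (0.0222). The deviations of same-numbered libraries correlated at 0.0844 over all genes and at 0.311 over the 49 members. With 2 pairs, and nothing in the labels to say what a number marks, the numbers were not taken as pairs. Genes with few reads at 24 h, such as CDC45 with 22 in each library, carry a wide counting error. The largest standard error of a log2 fold change among the 49 genes was that of MCM10 (0.196), beside 0.161 for CDC45.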
